A study of Mus musculus with 75 samples.

Results

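The Cyp4 fatty acid hydroxylases described here are the 10 genes Cyp4a10, Cyp4a12a, Cyp4a12b, Cyp4a14, Cyp4a31, Cyp4a32, Cyp4f13, Cyp4f14, Cyp4f15 and Cyp4v3, taken by gene symbol from a liver RNA-seq table of 55536 genes. The table lists 27 Cyp4 genes in all, pseudogenes included. The livers came from male C57Bl/6 mice whose dams drank either vehicle or 3.07 µM tributyltin (TBT) up to weaning, a daily dose of 0.5 mg for each kg of body weight. TBT is an organotin that is known to activate the nuclear receptors RXR and PPARγ.

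At 3 weeks there were 7 vehicle and 8 TBT mice. At 5 months there were 8 vehicle mice, 16 TBT-exposed mice labelled low-risk and 10 labelled high-risk. At 10 months there were 6 vehicle mice and 5 low-risk TBT-exposed mice. Other TBT-exposed livers were sampled as tumor (7) or as uninvolved tissue (5 after a merge described below). The labels call the uninvolved tissue high-risk and the tumors only tumor. The series title speaks of risk for liver tumors, and how a liver was assigned to low or high risk is not stated in the labels. All exposed mice had the same dose and exposure window, and every group is labelled with 1 strain and 1 sex.

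CYP4 enzymes are cytochromes P450 of the endoplasmic reticulum that add a hydroxyl group to the methyl end of fatty acids. The products are oxidised to dicarboxylic acids, which peroxisomes shorten. Many Cyp4a genes are classical targets of the fatty acid receptor PPARα, Cyp4a12a is a male-predominant enzyme that makes 20-HETE from arachidonic acid, and Cyp4f14 is known for hydroxylating leukotriene B4 and the tails of vitamins E and K. Cyp4v3 is the mouse counterpart of human CYP4V2, the gene of Bietti crystalline dystrophy.

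On the mouse assembly GRCm38, the Cyp4a members lie together on chromosome 4: Cyp4a12a at chr4:115299046-115332815, Cyp4a12b at chr4:115411624-115439034, Cyp4a14 at chr4:115486200-115496142, Cyp4a10 at chr4:115518264-115533649, Cyp4a31 at chr4:115563649-115579015 and Cyp4a32 at chr4:115600969-115621602. The Cyp4f members lie on chromosome 17, with Cyp4f15 at chr17:32685627-32703352, Cyp4f14 at chr17:32905070-32917342 and Cyp4f13 at chr17:32924688-32947402. Cyp4v3 stands alone at chr8:45304944-45333216.

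Some members are near copies of each other, which bears on every value below, because a read that fits 2 copies may be dropped or assigned to either. The longest open reading frames of Cyp4a12a and Cyp4a12b were 98.5% identical, with 23 differing bases of 1527 and an identical run of 342 bases. Of all 50-base words in the Cyp4a12a frame, 54.9% were also present in Cyp4a12b. The 90 bases below were chosen as the stretch of that length with the most differing positions, 7, shown in capitals. They are positions 661 to 750 of the reading frames, counted from the first base of the start codon, from the GENCODE M21 transcripts.
Cyp4a12a: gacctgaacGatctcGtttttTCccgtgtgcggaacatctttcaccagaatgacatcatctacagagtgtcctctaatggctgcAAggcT
Cyp4a12b: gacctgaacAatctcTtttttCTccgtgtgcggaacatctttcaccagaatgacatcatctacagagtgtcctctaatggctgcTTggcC

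Cyp4a10, Cyp4a31 and Cyp4a32 formed the other close group. Cyp4a10 was 97.2% identical to Cyp4a32 and 96.6% to Cyp4a31, and Cyp4a31 and Cyp4a32 were 96% identical to each other. Across the 3 frames 77 positions differed. Positions 190 to 279 of the frames, again the stretch chosen for the most differing positions, hold 13 of them, shown in capitals. The 3 genes were called differently between the risk groups, as described below, but were not tested against each other.
Cyp4a10: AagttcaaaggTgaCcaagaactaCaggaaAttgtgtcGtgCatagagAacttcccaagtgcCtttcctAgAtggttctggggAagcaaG
Cyp4a31: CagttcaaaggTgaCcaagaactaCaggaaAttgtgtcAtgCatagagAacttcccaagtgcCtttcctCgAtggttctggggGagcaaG
Cyp4a32: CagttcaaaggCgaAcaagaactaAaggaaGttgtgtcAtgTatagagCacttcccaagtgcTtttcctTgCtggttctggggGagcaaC

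The Cyp4f genes were further apart: Cyp4f14 and Cyp4f15 were 80.2% identical, and no pair of Cyp4f members shared more than 1.58% of its 50-base words. Cyp4a14 was at most 76.2% identical to any other member.

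Promoters were read for 5 of the 10 members (Cyp4a32, Cyp4f13, Cyp4f14, Cyp4f15 and Cyp4v3) from RefSeq on GRCm38.p6. Cyp4f13 and Cyp4f14, which were lower together in high-risk and tumor livers, are shown by the 250 bases before their start on the minus strand of chromosome 17, written in the direction of the gene. For Cyp4f14, which has 4 annotated starts, the window of the most upstream is given, and it is the only one of the 4 whose first 30 bases were not found in the GENCODE M21 transcript.
Cyp4f13 (chr17:32947362-32947611): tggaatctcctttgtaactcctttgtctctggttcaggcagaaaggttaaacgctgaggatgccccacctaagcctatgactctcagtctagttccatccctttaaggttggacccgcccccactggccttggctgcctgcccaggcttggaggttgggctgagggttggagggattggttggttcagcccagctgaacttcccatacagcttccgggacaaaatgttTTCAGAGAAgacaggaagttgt
Cyp4f14 (chr17:32917357-32917606): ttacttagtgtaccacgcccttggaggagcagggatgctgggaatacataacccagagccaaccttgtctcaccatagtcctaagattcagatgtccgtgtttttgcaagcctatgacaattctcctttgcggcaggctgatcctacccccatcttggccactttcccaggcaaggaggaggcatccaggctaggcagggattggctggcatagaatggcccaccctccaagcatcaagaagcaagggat

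The capitals mark TTCAGAGAA, a match to the STAT5 site TTCNNNGAA at bases -22 to -14 of Cyp4f13. It was the only match to the 3 motifs searched on both strands over 250 bases before and 50 after each start. STAT5 mediates growth hormone signals in liver. Of 32851 promoters in the RefSeq table, 8.3% held TTCNNNGAA, 16.3% held the nuclear receptor hexamer AGGTCA and 0.0396% held 2 such hexamers with 1 base between (AGGTCANAGGTCA, which also counts as a hexamer match), the element to which PPARα and RXR bind. A match is a description of letters and not of binding.

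Levels are given in CPM, a gene's counts relative to its library's total, after TMM scaling, which multiplies that total by a factor that keeps a few dominating transcripts from setting the scale. Libraries held 2831666 to 45448610 counts. Of the 5-month livers, 1 vehicle, 10 low-risk and 7 high-risk were sequencing batch 2, and every other library was batch 1. Going by their name, the deposited counts had been adjusted with ComBat-seq before the batch term and batch splits used here. Libraries that stood apart were a 5-month vehicle with 2831666 counts (replicate 9), a batch 2 high-risk library with 39669 genes detected (replicate 10), and a few with over 10% mitochondrial counts. A TBT library of 3 weeks (replicate 4) had 348.1 CPM of Xist and a batch 2 low-risk library (replicate 24) had 84.58 CPM, without TMM scaling, against at most 8.39 CPM in the other groups. Xist marks female cells. The 4 Y-linked genes read summed to 7.076 CPM in that 3-week library, against 93.95 CPM or more in every other, so it goes against its male label. They summed to 237.2 CPM in low-risk 24, within the range of the other groups. Uninvolved libraries 3 and 6 differed by a chi-square of 3.48 per gene, less than any other pair of libraries of a group (next 13.5), and were counted as 1 sample. The labels do not say whether other replicates are separate litters or cohorts, so p-values measure the spread between these samples. A vehicle library of 10 months labelled as tumor entered no comparison.

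Per kilobase of exon, the scale on which genes can be compared, Cyp4v3, Cyp4a10 and Cyp4f14 had the highest medians in vehicle livers of 10 months, at 130.5, 125.1 and 116.7 CPM per kb. Cyp4a10 ranged from 44.29 to 589.3 over the 6 mice, so the order of these 3 was within their spread. Cyp4a12a (54.18) and Cyp4f15 (53.13) followed, then Cyp4a14 (31.46), Cyp4a32 (20.16), Cyp4a12b (17.31), Cyp4f13 (14.65) and Cyp4a31 (1.997 CPM per kb). Cyp4a12a and Cyp4f15 did not differ beyond their spread, nor did the run from Cyp4a14 to Cyp4f13. In high-risk livers of 5 months Cyp4a14 was first, at 173.2 CPM per kb, and in tumors it ranked 6 of 10.

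The members differed in how much they varied from mouse to mouse. In the 16 low-risk livers of 5 months the standard deviation of log2(CPM + 0.5) was 2.40 for Cyp4a14, 2.25 for Cyp4a12b, 1.78 for Cyp4a12a and 1.70 for Cyp4a10. It was 0.20 for Cyp4f14, 0.26 for Cyp4f13 and 0.31 for Cyp4f15. Cyp4a31 (0.89) and Cyp4a32 (0.64) lay between. That order did not hold in every group: in tumors the standard deviation was 0.15 for Cyp4a12a and 0.44 for Cyp4f14, and in 3-week TBT livers it was 0.45 for Cyp4a32 and 0.86 for Cyp4f14.

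**Figure D1:**
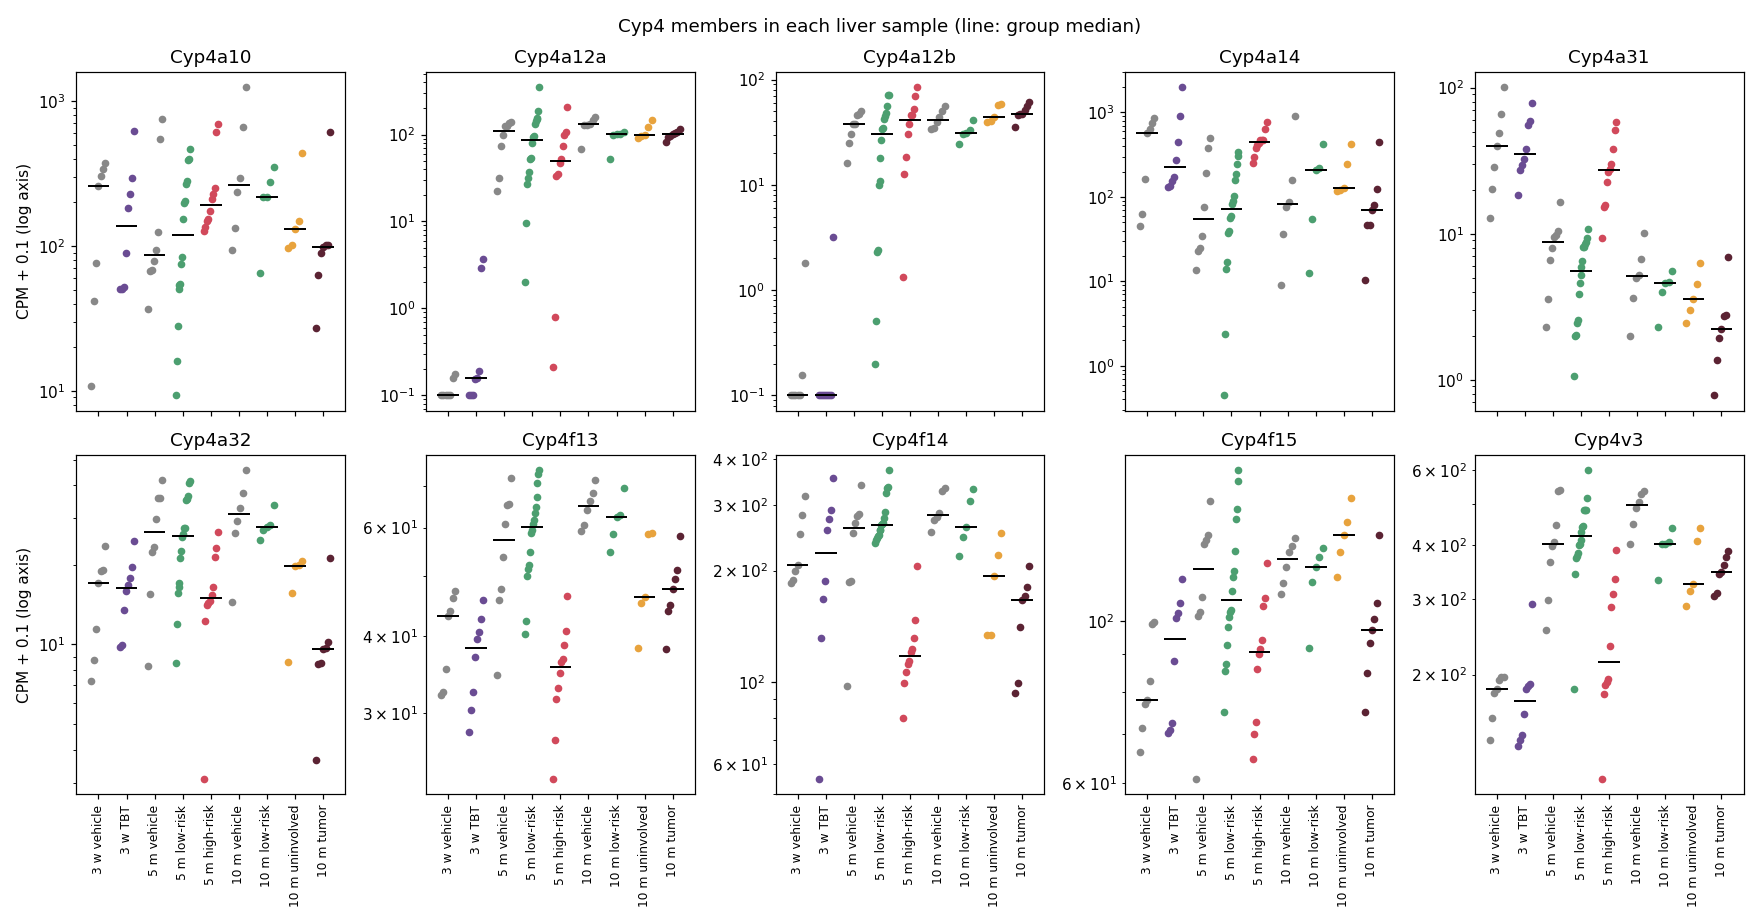
Level of each member in every liver sample as CPM plus 0.1 on a log axis, by age and group, with a line at the group median. Cyp4a12a and Cyp4a12b are near 0 at 3 weeks, Cyp4a14 of high-risk livers sits between 248.7 and 778.6 CPM, and Cyp4f14 of high-risk livers lies below all low-risk livers.

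Between 3 weeks and 5 months, vehicle livers gained the male-predominant enzymes. Cyp4a12a gave 0 counts in 5 of 7 mice at 3 weeks and 1 count in each of the others. At 5 months it ranged from 22.43 CPM through a median of 111 to 137.9 CPM, with no overlap, as for 2.27% of all genes in this direction. Pooled over the 7 mice of batch 1, the ratio of the ages was 5358, with a 95% counting interval from 1483 to 4.425e+04. That interval covers counting error only. It treats the adjusted counts as if they were reads, as does the interval for Cyp4a12b below.

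Cyp4a12b gave 33 counts at 3 weeks, 32 of them in vehicle 6, and ranged from 16.17 through 37.8 to 50.45 CPM at 5 months. Its pooled ratio was 114 (95% counting interval 81.06 to 165.8). Both genes were called higher (edgeR adjusted p = 1.91e-13 for Cyp4a12a and 2.95e-08 for Cyp4a12b), although DESeq2 gave Cyp4a12b an adjusted p of 0.0569. Their fitted fold changes depend on the prior count and are not given as sizes. Since the pair shares most of its sequence, the sum of both was fitted too and was also higher (edgeR adjusted p = 3.68e-09).

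Cyp4v3 rose with age. It ran from 140.4 through 185.2 to 197.4 CPM at 3 weeks and from 254.1 through 402.4 to 536.8 CPM at 5 months, so the ages did not overlap. Its log2 fold change was 1.12 (SE 0.13, edgeR adjusted p = 1.5e-06). Cyp4f13 rose by 0.49 on the log2 scale (SE 0.12, edgeR adjusted p = 0.00338) and Cyp4f15 by 0.41 (SE 0.11, edgeR adjusted p = 0.0105). The Cyp4f15 call was lost without a filter on low counts (edgeR adjusted p = 0.13) and without TMM scaling (0.127).

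Cyp4a31 went the other way. It ranged from 12.8 through 39.77 to 100.4 CPM at 3 weeks and from 2.214 through 8.634 to 16.38 CPM at 5 months, and the ages overlapped. It fell by 2.31 on the log2 scale (SE 0.43, edgeR adjusted p = 0.000545). In all, 5 of 10 members were higher and 1 lower at 5 months, beside 11.9% of 14962 genes higher and 12.3% lower (24.2% in either direction).

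Among the genes of the growth hormone axis and male-biased genes, 10 of 18 rose and 1 fell (median log2 fold change 1.94), and of 12 female-biased genes tested 11 fell and none rose (median -4.69), against 0.02 over all genes. Elovl3, a fatty acid elongase with male-biased expression, rose by 5.85 (SE 0.59), and Sult2a1, a female-biased sulfotransferase, fell by 10.23 (SE 0.27; edgeR adjusted p = 4.57e-07 and 2.47e-17). Over the same span 5 of 6 macrophage, 5 of 5 endothelial and 4 of 6 stellate cell markers fell. Hepatocyte markers summed to 1.425e+05 to 2.042e+05 CPM at 3 weeks and 6.31e+04 to 1.796e+05 at 5 months, and their part in these results was not tested. In bulk tissue, fewer cells of a type and less RNA per cell cannot be told apart.

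From 5 to 10 months no member was called in vehicle livers, beside 6.68% of genes higher and 7.41% lower (14.1% in either direction). The unadjusted p was below 0.05 for 30.5% of genes and for 1 member, Cyp4v3 (log2 fold change 0.29, SE 0.13, p = 0.0425, edgeR adjusted p = 0.149), and DESeq2 also called none. Without TMM scaling 1 member was called higher.

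No member differed detectably between TBT and vehicle at 3 weeks, the age at which the exposure ended. The comparison of TBT with vehicle called 0 of the 8 members tested by edgeR and 0 by DESeq2, and 0% of 14050 genes. None of the 8 had an unadjusted p below 0.05, where 3.37% of all genes did. Cyp4a12a and Cyp4a12b had too few counts to be tested, with at most 3.62 and 3.075 CPM in any TBT liver.

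The 3-week levels of the variable members were wide in both groups. Cyp4a14 ran from 45.72 through 567.4 to 858 CPM in vehicle and from 130.6 through 224 to 1987 CPM in TBT livers (log2 fold change 0.27, SE 0.78). Cyp4f14 ran from 184.8 through 207.1 to 317.7 CPM in vehicle and from 54.88 through 222.4 to 356.3 CPM in TBT livers. The lowest of these Cyp4f14 values belonged to the TBT library with high Xist and low Y-linked counts, and without that library the count called was also 0. For the 8 tested members the log2 fold changes ran from -0.12 to 0.27.

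Low-risk TBT-exposed livers were compared with vehicle at both later ages. At 5 months 0 of 10 members and 0% of 14773 genes were called between them, and at 10 months 0 of 10 and 0% of 16338 genes, by edgeR; DESeq2 called 0 members at both ages. At 5 months 6.32% of genes had an unadjusted p below 0.05 and no member did. At 10 months 4.21% of genes did, with 3 members: Cyp4a12b (log2 fold change -0.41, SE 0.15, p = 0.0151), Cyp4v3 (-0.29, SE 0.12, p = 0.0242) and Cyp4a12a (-0.47, SE 0.21, p = 0.0391), each with an edgeR adjusted p of 1. Cyp4a10 stood at -0.97 with an SE of 0.65 at 10 months and did not pass the test.

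High-risk livers of 5 months had more mRNA of Cyp4a31 and Cyp4a14 than low-risk livers and less of 5 others, Cyp4f13, Cyp4f14, Cyp4f15, Cyp4v3 and Cyp4a32. That made 2 of 10 members higher and 5 lower, beside 20.3% of 14773 genes higher and 18.5% lower (38.9% in either direction). The members' median log2 fold change was -0.41, against -0.01 over all genes. Cyp4a10, Cyp4a12a and Cyp4a12b did not pass the test.

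Cyp4a14, a lauric acid hydroxylase that responds strongly to PPARα activators, was narrow and high in the high-risk livers. Its 10 values ran from 248.7 through 450.5 to 778.6 CPM, whereas the 16 low-risk livers ran from 0.3472 through 71.23 to 335.9 CPM. Only the 2 highest low-risk livers, at 306 and 335.9 CPM, reached into the high-risk range, which they did above its 2 lowest values. The log2 fold change was 2.21 (SE 0.64, edgeR adjusted p = 0.00638). Within batch 2 (7 high-risk, 10 low-risk) it was 2.40 (edgeR adjusted p = 0.00287) and within batch 1 (3 and 6) 1.57 (0.566), where the call was lost.

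Cyp4a31 separated the groups with a single overlap. High-risk livers ran from 9.257 through 27.01 to 58.02 CPM and low-risk livers from 0.9547 through 5.473 to 10.64 CPM. The log2 fold change was 2.44 (SE 0.33, edgeR adjusted p = 1.17e-06), with 2.77 in batch 2 (edgeR adjusted p = 2.59e-05) and 1.43 in batch 1 (0.106). Its 3-week range, 12.8 to 100.4 CPM in vehicle, covered 9 of the 10 high-risk values and none of the low-risk values; this is a description with no test.

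Its near copies were not called higher. Cyp4a10 ran from 127.6 through 192 to 694.9 CPM in high-risk and from 9.2 through 118.5 to 462.8 CPM in low-risk livers. The log2 difference was 0.80 with an SE of 0.57 (edgeR adjusted p = 0.278), and it turned to -0.50 in batch 1. High-risk and low-risk medians were 153.3 and 236.4 CPM in batch 1, and 226.5 and 79.16 CPM in batch 2. Cyp4a32 ran from 3.011 through 14.84 to 26.45 CPM in high-risk and from 8.378 through 25.72 to 41.26 CPM in low-risk livers. It fell by 0.65 (SE 0.25, edgeR adjusted p = 0.0409), but this call was lost within batch 1 (-0.35, 0.705), within batch 2 (-0.84, 0.0504), without high-risk library 10 (-0.54, 0.0738), without TMM scaling (-0.35, 0.262) and with RLE size factors or no filter. Summed with the read-sharing copies, Cyp4a10, Cyp4a31 and Cyp4a32 together differed by 0.76 (SE 0.49, edgeR adjusted p = 0.228).

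The Cyp4f genes and Cyp4v3 moved down in smaller steps over a narrower spread. Cyp4f14 ran from 80.22 through 117.3 to 205.1 CPM in high-risk and from 236.9 through 266.1 to 372.4 CPM in low-risk livers. The groups did not overlap, as was so for 0.494% of all genes in this direction. Cyp4f14 fell by 1.17 (SE 0.13, edgeR adjusted p = 8.19e-08), by 1.35 within batch 1 (0.0132) and by 1.12 within batch 2 (1.96e-05).

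Cyp4f13 ran from 23.42 through 35.51 to 46.41 CPM in high-risk and from 40.27 through 60.05 to 74.18 CPM in low-risk livers. It fell by 0.74 (SE 0.11, edgeR adjusted p = 1.47e-06), and within batches by 0.80 in batch 1 (0.0411) and 0.75 in batch 2 (0.000204). Of the 7 called members, Cyp4f13 and Cyp4f14 were those also called within each batch.

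Cyp4v3 ran from 114.4 through 214 to 390.6 CPM in high-risk and from 184.6 through 420.3 to 597.5 CPM in low-risk livers. It fell by 0.79 (SE 0.16, edgeR adjusted p = 0.000167), by 1.01 in batch 2 (0.00064) and by 0.42 in batch 1, where it was not called (0.282). Cyp4f15 ran from 64.59 through 90.58 to 119.9 CPM against 75 through 106.5 to 160.3 CPM. It fell by 0.31 (SE 0.12, edgeR adjusted p = 0.04), a call lost within either batch (0.527 and 0.0823), without high-risk library 10 (0.0683) and without TMM scaling, where the log2 fold change was -0.02. Without TMM scaling the median gene shifted by 0.30 in this comparison, since the high-risk factors (median 1.16) exceeded the low-risk ones (0.922).

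Against vehicle, the high-risk livers gave a like picture with less support. These 2 comparisons share the high-risk samples, so the values are set side by side and not counted as separate evidence. Here 1 of 10 members was higher and 3 lower, beside 8.47% and 7.38% of genes (15.8% in either direction). Cyp4a31 was higher by 1.90 (SE 0.47, edgeR adjusted p = 0.00674), while Cyp4f14 fell by 0.98 (SE 0.17, 0.00028), Cyp4f13 by 0.65 (SE 0.13, 0.00149) and Cyp4v3 by 0.63 (SE 0.19, 0.0216).

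Vehicle livers ran from 2.214 through 8.634 to 16.38 CPM for Cyp4a31 and from 97.7 through 261.2 to 339.3 CPM for Cyp4f14. The lowest of these Cyp4f14 values was in the vehicle library with 2831666 counts. Cyp4a14 stood 2.002 above vehicle on the log2 scale (SE 0.90), which did not pass with edgeR (adjusted p = 0.132) and did with DESeq2 (0.0451). Vehicle livers covered 13.66 to 497.2 CPM of it. Batch 1 alone (3 high-risk, 7 vehicle) called 0 members, with Cyp4a31 at 0.90 and Cyp4f14 at -1.08. Fitting only these 2 groups called 2. Batch 2 held 1 vehicle liver and gave no test of its own. Without TMM scaling Cyp4f13 and Cyp4v3 lost their calls (edgeR adjusted p = 0.103 and 0.301).

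**Figure D2:**
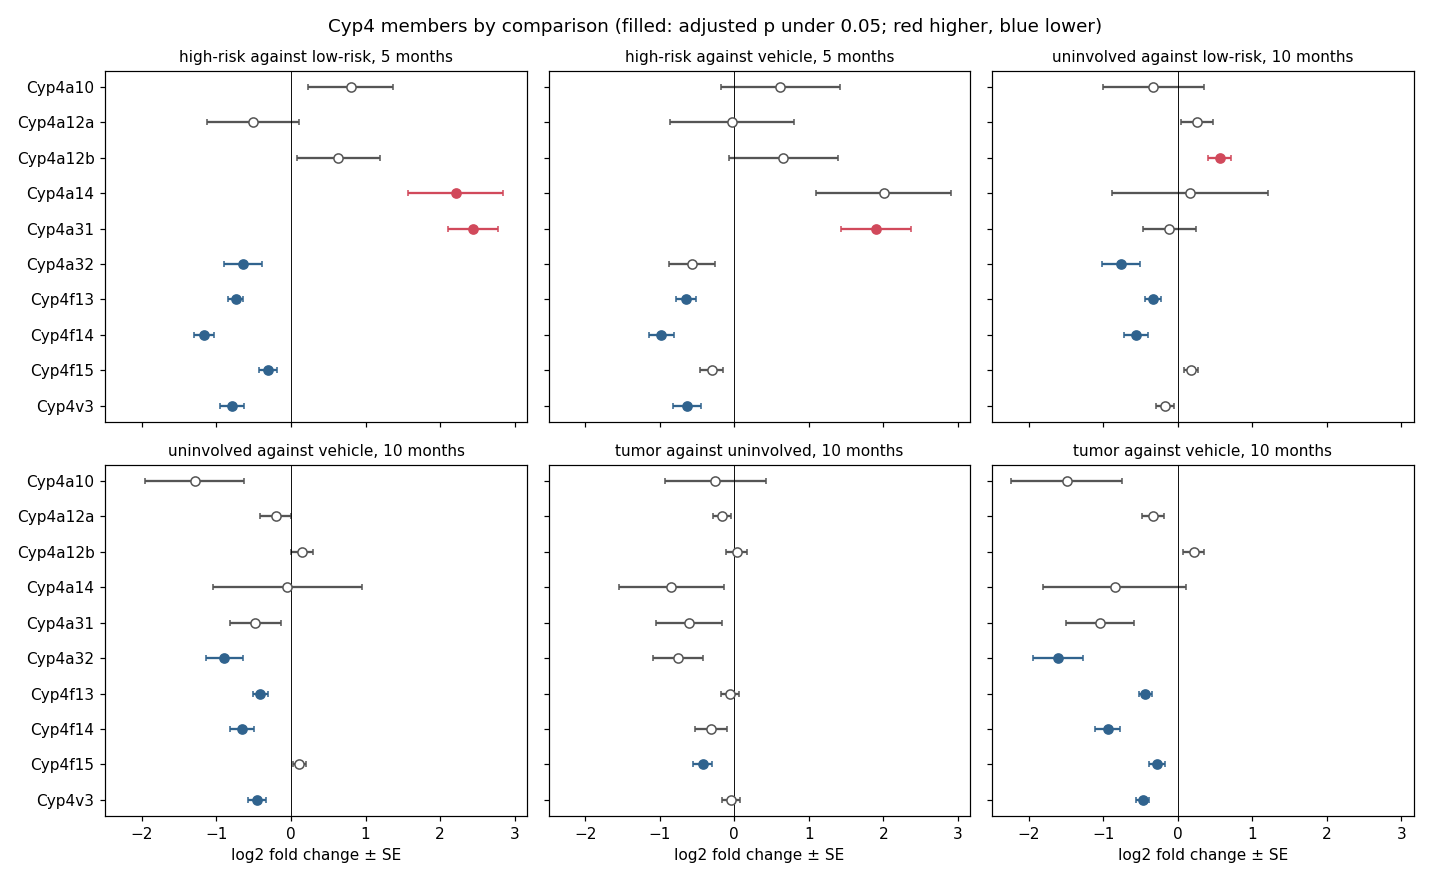
Log2 fold change with its standard error for each member in 6 comparisons (edgeR); filled points have an adjusted p under 0.05, red higher and blue lower. Cyp4a14 and Cyp4a31 stand at 2.21 and 2.44 in high-risk against low-risk livers, while Cyp4f13 and Cyp4f14 are blue in all panels but tumor against uninvolved.

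Other genes of the pathway were read from lists. Of 24 genes for the later steps, alcohol and aldehyde dehydrogenases and peroxisomal dicarboxylic acid oxidation, 3 rose and 9 fell in high-risk against low-risk livers (median -0.23). Ehhadh, a bifunctional enzyme of peroxisomal beta-oxidation, rose by 1.18 (SE 0.27, edgeR adjusted p = 0.000718), and Adh4, an alcohol dehydrogenase, fell by 1.34 (SE 0.26, 0.000128). Of 18 genes tested on the PPARα list 3 rose and 4 fell (median -0.10). The 2 called genes with the largest fold change were both higher. Pdk4, a kinase that restrains glucose oxidation, rose by 1.27 (SE 0.37, edgeR adjusted p = 0.00692), and Fgf21, a fasting hormone, by 1.25 (SE 0.36, 0.00591). In high-risk livers against vehicle, 0 of these 18 rose and 2 fell (median -0.13). They were Fabp1 (log2 fold change -1.03, SE 0.33, edgeR adjusted p = 0.0313) and Ppara itself (-0.77, SE 0.25, 0.0286).

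The lists tied to sex-biased expression moved further in high-risk against low-risk livers. None of 18 genes of the growth hormone axis and male-biased genes rose and 13 fell (median -1.37), and 6 of 10 female-biased genes rose and 1 fell (median 1.20). Hsd3b5, a male-specific steroid reductase, fell by 5.53 (SE 0.87), and Cyp2a4, a female-biased steroid hydroxylase, rose by 3.99 (SE 0.78; edgeR adjusted p = 1.07e-05 and 0.000163). Of 9 genes of eicosanoid metabolism tested, 2 rose and 6 fell (median -0.997). Among the other Cyp4 genes, 5 of 14 could be tested. Cyp4f16 rose by 1.65 (SE 0.41) and Cyp4f18, a leukotriene hydroxylase of white blood cells, by 1.52 (SE 0.43), and 1 fell, Cyp4b1, by 0.62 (SE 0.17). In high-risk livers against vehicle 0 of these 5 were called.

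Marker genes of other liver cells also moved in high-risk against low-risk livers. Stellate cell markers summed to 308.9 through 654.3 to 1042 CPM in high-risk and 205.2 through 310.9 to 424.7 CPM in low-risk livers, with 4 of 6 called higher and 1 lower. Cholangiocyte markers summed to 32.78 through 279.6 to 349.6 CPM against 27.32 through 46.52 to 220.6 CPM, with 4 of 5 higher. Hepatocyte markers summed to 6.681e+04 through 1.024e+05 to 1.763e+05 CPM against 8.987e+04 through 1.297e+05 to 1.788e+05 CPM, with 0 of 7 higher and 4 lower. Macrophage markers were higher for 2 of 6 and lower for 1, endothelial markers higher for 1 of 5 and lower for 3, and T cell markers higher for 3 of 3. The part of all these markers in the members' changes was not tested. Kidney tubule markers, of interest because kidney expresses Cyp4a12, had a median sum of 0.07425 CPM in high-risk livers (at most 3.681) and 0.1048 CPM in low-risk livers (at most 0.9162).

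Cyp4a12a and Cyp4a12b did not separate the risk groups, yet they spread the most in batch 2. Cyp4a12a ran from 0.1115 through 49.29 to 209.8 CPM in high-risk and from 1.892 through 86.36 to 349.6 CPM in low-risk livers (log2 fold change -0.51, SE 0.62, edgeR adjusted p = 0.544). Cyp4a12b ran from 1.227 through 41.51 to 84.47 CPM against 0.09887 through 30.06 to 72 CPM (0.64, SE 0.55, 0.38). The sum of the pair differed by -0.18 (SE 0.54, edgeR adjusted p = 0.823).

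The division of counts within the pair also ranged more widely in batch 2 than in batch 1. In batch 1 livers of 5 months, the share of the pair's counts given to Cyp4a12b ran from 19.6% to 34.1% in vehicle, from 22.3% to 32.9% in low-risk and from 33.8% to 39.4% in high-risk livers. In batch 2 it ran from 0.265% to 38.7% over 9 low-risk livers and from 17.9% to 94.8% over 6 high-risk livers with at least 20 counts of the pair. Some batch 2 livers were thus outside the batch 1 range in both directions, with medians of 21.7% in low-risk and 52% in high-risk livers. The 1 vehicle liver of batch 2 had 52.5%. The part of batch, risk group and the adjustment of the counts in this was not tested. The library with high Xist (low-risk 24) had 1.892 CPM of Cyp4a12a and 0.4054 of Cyp4a12b, among the lowest of its group; without it the same number of members was called between the risk groups, 7.

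**Figure D3:**
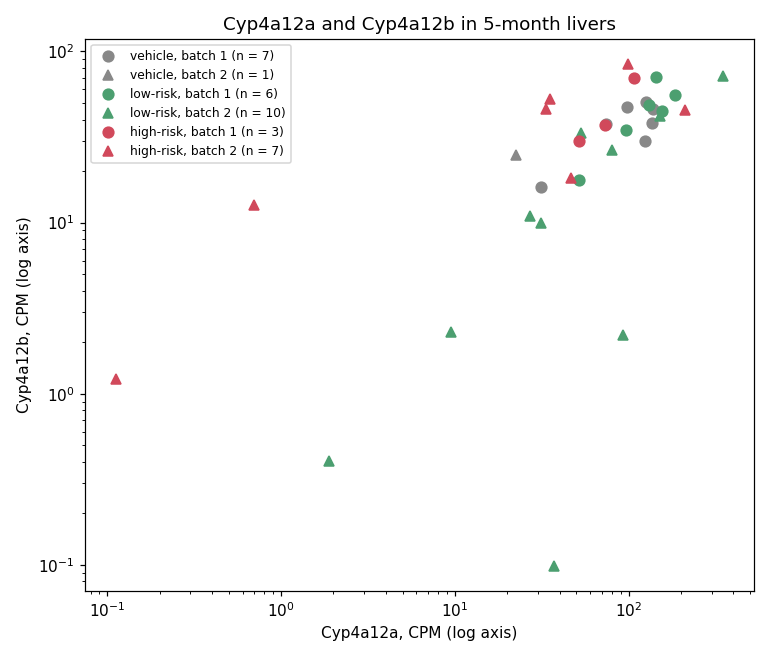
Cyp4a12b against Cyp4a12a in CPM on log axes for the 5-month livers, coloured by group, with circles for batch 1 and triangles for batch 2. The batch 1 livers lie in a tight band and the batch 2 livers scatter from 0.1115 to 349.6 CPM of Cyp4a12a.

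Within the 16 low-risk livers of 5 months, some members varied together. Over 45 pairs of members, 10 had a Pearson correlation of log2(CPM + 0.5) with a Benjamini-Hochberg adjusted permutation p below 0.05, all positive. Of these 10, 6 were between Cyp4a members and 4 joined a Cyp4a member to Cyp4f13, Cyp4f15 or Cyp4v3. No pair of Cyp4a12a or Cyp4a12b with Cyp4a10, Cyp4a14, Cyp4a31 or Cyp4a32 passed. Cyp4a10 and Cyp4a14 had r = 0.917 and Spearman's rho = 0.912, each with a permutation p of 1e-05, the smallest that 100000 resamples can give (adjusted 0.00045). Without the 2 livers farthest from the median of Cyp4a10, r was 0.847, and it was 0.994 in batch 1 (n = 6) and 0.796 in batch 2 (n = 10).

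Cyp4a31 and Cyp4a32 had r = 0.821 and rho = 0.853 (permutation p = 0.00014 and 8e-05, adjusted 0.0021 and 0.0012; r without 2 livers 0.74), though the groups' means of these 2 genes lay in opposite directions between the risk groups. Cyp4a12a went with Cyp4a12b (r = 0.772, rho = 0.862, permutation p = 0.00071 and 4e-05, adjusted 0.00469 and 0.0009) and with Cyp4v3 (r = 0.815, rho = 0.721, permutation p = 0.00055 and 0.00217, adjusted 0.00469 and 0.0163); r without 2 livers was 0.64 and 0.638. Read-sharing copies can correlate through shared reads, while Cyp4a10 and Cyp4a14 are 75.6% identical.

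**Figure D4:**
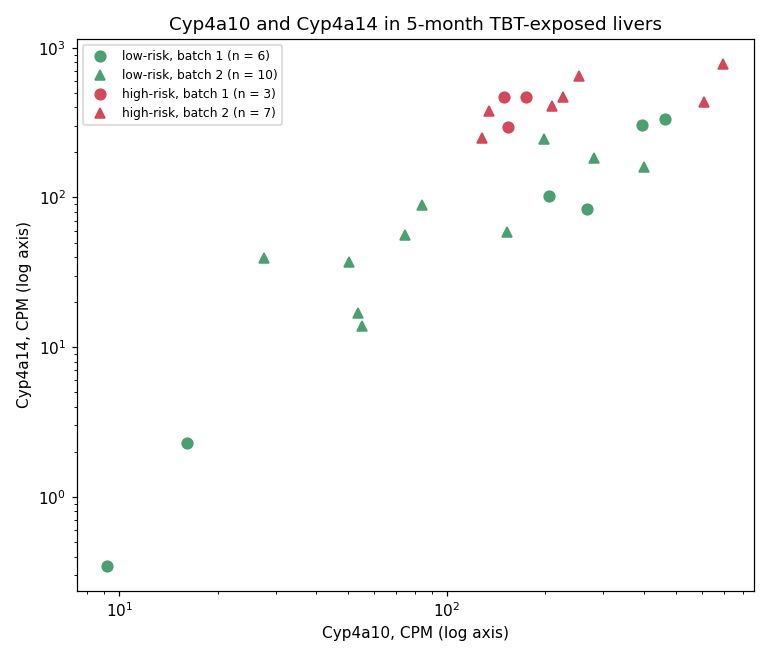
Cyp4a14 against Cyp4a10 in CPM on log axes for the TBT-exposed livers of 5 months, coloured by risk group, with circles for batch 1 and triangles for batch 2. The low-risk livers line up (r = 0.917 on the log2 scale), and the high-risk livers stand at Cyp4a14 levels of 248.7 CPM or more.

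At 10 months, uninvolved liver of TBT-exposed mice had less Cyp4f14, Cyp4f13 and Cyp4a32 than low-risk liver and more Cyp4a12b. That was 1 of 10 members higher and 3 lower, beside 27.7% of 16338 genes higher and 24.7% lower, so the share of members called, 4 of 10, lay under the 52.4% of genes called in either direction. The uninvolved libraries stood apart in quality measures too, without overlap. Their mitochondrial share was 4.202% to 5.845%, against 2.94% to 3.081% in low-risk and 3.138% to 3.834% in vehicle liver. They had 24676 to 28715 genes detected, against at most 22578 and 22006, and they were deeper than any low-risk or vehicle library. The part of these measures in the comparisons of uninvolved liver was not tested.

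Cyp4f14 measured 133.8, 133.9, 193, 220.7 and 252.9 CPM in the 5 uninvolved samples and 219.3, 246.4, 262.3, 307.3 and 331.3 CPM in the 5 low-risk livers. The 3 lowest uninvolved samples were below every low-risk liver. It fell by 0.56 (SE 0.16, edgeR adjusted p = 0.00836). Cyp4f13 measured 38.13, 45.13, 46.15, 58.43 and 58.67 CPM against 54.63, 58.41, 62.24, 62.74 and 69.38 CPM, and fell by 0.33 (SE 0.11, 0.016).

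Cyp4a32 measured 8.486, 15.62, 19.62, 19.8 and 20.55 CPM in uninvolved and 24.67, 27, 27.62, 28.1 and 33.54 CPM in low-risk liver. These did not overlap, as for 15.8% of genes in this direction. It fell by 0.76 (SE 0.25, edgeR adjusted p = 0.0188), and without low-risk replicate 9 the call was lost (-0.69, 0.0505), as it was with tumors in the same fit (0.0515). Cyp4a12b measured 39.65, 40.42, 43.82, 56.77 and 58.41 CPM in uninvolved and 24.61, 30.35, 31.33, 32.82 and 41.18 CPM in low-risk liver, with a single low-risk liver above the lowest uninvolved samples. It rose by 0.56 (SE 0.16, edgeR adjusted p = 0.00738), and the sum with Cyp4a12a by 0.34 without passing the test (SE 0.19, 0.137).

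Scaling bears on these calls. Without TMM scaling the median gene shifted by 0.30 in this comparison, Cyp4a32, Cyp4f13 and Cyp4f14 lost their calls (edgeR adjusted p = 0.122, 0.306 and 0.0517), and 2 members were called higher. The members' median was -0.14, against 0.05 over all genes.

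Against vehicle, the same uninvolved samples had 4 members lower and 0 higher, beside 26.5% and 31.2% of genes (57.7% in either direction). Vehicle liver ran from 254.7 through 282.4 to 333.4 CPM for Cyp4f14 and from 59.19 through 65.05 to 71.68 CPM for Cyp4f13, and neither overlapped with the uninvolved samples, as for 15.7% of genes in this direction. Cyp4f14 fell by 0.66 (SE 0.16, edgeR adjusted p = 0.00191) and Cyp4f13 by 0.41 (SE 0.10, 0.00287). Cyp4a32 fell by 0.89 (SE 0.24, 0.00545) and Cyp4v3 by 0.46 (SE 0.12, 0.00296). Without TMM scaling, which shifted the median gene by 0.38, Cyp4f14 alone of these 4 held its call and 2 other members were called higher.

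Cyp4v3 measured 289.4, 312.3, 324.7, 410.3 and 439.9 CPM in uninvolved liver and ran from 402.2 through 496.9 to 535.7 CPM in vehicle. Cyp4a10 did not pass the test (-1.29, SE 0.66, edgeR adjusted p = 0.107); it ran from 93.41 through 263.9 to 1243 CPM in vehicle and measured 95.86, 102, 129.7, 148.5 and 437 CPM in uninvolved liver. Without uninvolved replicate 7, the highest of these, its adjusted p was 0.0314 with a log2 fold change of -1.90.

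The pathway lists were read in the same comparison. Of the 24 genes of the later omega-oxidation steps, 2 were higher and 19 lower in uninvolved against vehicle liver (median -0.57), and of 19 PPARα genes 1 was higher and 12 lower (median -0.35). Acsl1, which activates long-chain fatty acids, fell by 1.29 (SE 0.17, edgeR adjusted p = 7.54e-06), and Acot1, a PPARα-responsive thioesterase, fell by 1.84 (SE 0.49, 0.00535). Hsd3b5 fell by 4.79 (SE 0.46, 1.02e-06). Stellate markers summed to 322.9 through 389.2 to 556 CPM in uninvolved liver and 187.7 through 230.2 to 296.4 CPM in vehicle, with 4 of 6 higher and 1 lower. Cholangiocyte markers were higher for 5 of 5. T cell markers were higher for 3 of 3, but low, with sums of at most 5.369 CPM in uninvolved liver and 1.574 CPM in vehicle. Macrophage markers were higher for 1 of 6 and lower for 4, and endothelial markers higher for 2 of 5 and lower for 2. Hepatocyte markers were lower for 4 of 7. Their part in the members' falls was not tested.

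Cyp4a14 and Cyp4a31, the pair that was high in high-risk livers of 5 months, were not called between uninvolved and low-risk liver of 10 months. Cyp4a31 measured 2.336, 2.882, 3.483, 4.418 and 6.184 CPM in uninvolved and 2.196, 3.863, 4.519, 4.552 and 5.481 CPM in low-risk liver (log2 fold change -0.11, SE 0.35, edgeR adjusted p = 0.807). Cyp4a14 measured 118.9, 122.2, 129.1, 245.6 and 424.5 CPM against 12.46, 54.08, 208.5, 219.8 and 419.9 CPM (0.17, SE 1.05, 0.905). With so wide an SE, the Cyp4a14 value cannot tell no difference from the 2.21 found at 5 months.

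The change of the difference itself, uninvolved less low-risk at 10 months minus high-risk less low-risk at 5 months, was tested in a fit of these 4 groups. Cyp4a31 was the only member called, at -2.49 (SE 0.58, edgeR adjusted p = 0.0413), beside 0.267% of 16084 genes lower and 0.18% higher (0.448% in either direction). The call was lost in each of the 10 fits that left out 1 sample of 10 months (adjusted p 0.0562 to 0.125) and without a filter on low counts (0.166). Cyp4a14 had a similar change that did not pass (-1.99, SE 1.11, 0.488). That uninvolved liver came from mice with tumors is read from that word and from equal numbers in the titles. Whether the high-risk mice of 5 months would have become such mice is not given by the labels.

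Between tumors and uninvolved liver, 0 of 10 members were higher and 1 lower, beside 7.55% of 16362 genes higher and 10.5% lower (18.1% in either direction). Cyp4f15 ran from 74.92 through 97.01 to 130.8 CPM in 7 tumors and measured 114.7, 124.2, 130.9, 136.2 and 147 CPM in uninvolved liver. Of the tumors, 1 (replicate 7) was above the lowest uninvolved samples, and the others were below all of them. Cyp4f15 fell by 0.42 (SE 0.13, edgeR adjusted p = 0.0332).

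Tumor and uninvolved libraries share a mouse number in the labels in 6 cases, and Cyp4f15 was higher in the tumor in 1 of 6. Since uninvolved libraries 3 and 6 are near identical, at least 1 of these pairs may not be of the same mouse. Across genes, 1 of the 6 correlated best with its own number. With the mouse number as a block the fall was 0.38 (edgeR adjusted p = 0.0504) and the call was lost, as it was without mice 3 and 6 (0.0987). Leaving out uninvolved replicate 1, 5, 7 or 12 also ended it (0.0535 to 0.072). For Cyp4a31, 1 of 6 tumors was higher than its own uninvolved liver, and for the other members 2 to 4 of 6. Cyp4a32, with 3.547 through 9.495 to 21.08 CPM in tumors, stood at -0.76 without passing the test (SE 0.34, edgeR adjusted p = 0.126).

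Against vehicle, tumors had 5 members lower and 0 higher, beside 21% and 24.8% of 15293 genes (45.9% in either direction). Cyp4a32 fell most, by 1.60 (SE 0.33, edgeR adjusted p = 0.00158), from a vehicle range of 14.41 through 30.96 to 45.41 CPM. Cyp4f14 ran from 93.34 through 166.3 to 205.2 CPM in tumors, below every vehicle liver, and fell by 0.94 (SE 0.17, 0.000377). Cyp4v3 ran from 305.3 through 345.8 to 388.3 CPM, also below every vehicle liver (as for 8.85% of genes in this direction), and fell by 0.47 (SE 0.09, 0.000578). Cyp4f13 ran from 38.11 through 47.54 to 58.16 CPM and fell by 0.43 (SE 0.09, 0.000944).

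Cyp4f15 fell by 0.27 against vehicle (SE 0.11, edgeR adjusted p = 0.0488), a call lost without a filter (0.0542) and turned to 0.0146 without TMM scaling, which shifted the median gene by 0.29. Without that scaling Cyp4f13 and Cyp4v3 lost their calls too (0.0948 and 0.105). Not passing the test were Cyp4a31 at -1.04 (SE 0.46, edgeR adjusted p = 0.0775; DESeq2 0.0403), Cyp4a10 at -1.49 (SE 0.74, 0.118) and Cyp4a14 at -0.85 (SE 0.96, 0.497). In 6 of the 7 tumors Cyp4a10 was at or below 102.1 CPM, and tumor 7 had 606 CPM.

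Cyp4a12a and Cyp4a12b, which were higher at 5 months than at 3 weeks, did not pass the test in tumors. Cyp4a12a ran from 82.78 through 102 to 114.5 CPM in tumors and from 67.49 through 131.2 to 159.2 CPM in vehicle (-0.33, SE 0.15, edgeR adjusted p = 0.0824). Cyp4a12b ran from 34.99 through 47.46 to 61.43 CPM against 34.01 through 41.46 to 55.52 CPM (0.21, SE 0.14, 0.225). At the same time 11 of 18 genes on the growth hormone and male-biased list fell and none rose (median -0.70), and Hsd3b5 fell by 4.88 (SE 0.60, edgeR adjusted p = 4.63e-05). Hepatocyte markers were lower for 5 of 7 and cholangiocyte markers higher for 5 of 5. Macrophage markers were higher for 1 of 6 and lower for 2, and endothelial markers higher for 2 of 5 and lower for 3. The part of these markers was not tested. Of 24 later omega-oxidation genes 2 rose and 13 fell, and of 18 PPARα genes 0 rose and 9 fell. The other Cyp4 genes Cyp4f16 and Cyp4f18 rose by 2.94 (SE 0.30) and 2.37 (SE 0.28; edgeR adjusted p = 7.41e-06 and 1.83e-05), opposite to the members Cyp4f13 and Cyp4f14.

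Among genes averaging 5 CPM or more, those nearest to each member over the 9 group means were found by the root mean square difference of centred log2(CPM + 0.5). Nearest to Cyp4f14 were H2-Q7 (0.0588) and Fabp1 (0.09), over a span of 1.27 for Cyp4f14 itself; Fabp1 is the liver fatty acid binding protein. Nearest to Cyp4f13 were Msrb1 (0.0497) and Sod1 (0.0511), and to Cyp4f15 Pqbp1 (0.0543) and Zrsr1 (0.0556). Nearest to Cyp4v3 were Necab1 (0.0906) and Enpp3 (0.129).

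In the Cyp4a cluster the differences were larger, but so were the members' own spans, 1.58 to 7.90 against 0.68 to 1.46 elsewhere. The values thus do not rank likeness between the 2 sets. Cyp4a12a was nearest to Mup-ps19 (0.649) and Mup20 (0.857), major urinary protein loci, over a span of 7.90, and Cyp4a12b to Mup-ps19 (0.755) and Hamp (0.767), the iron hormone hepcidin. Cyp4a31 was nearest to Peg3 (0.39) and Nt5e (0.505) over a span of 3.87, and Cyp4a14 to Slc16a5 (0.557) and Adamts2 (0.592). Cyp4a10 was nearest to Plk3 (0.31) and Crat (0.35), the carnitine acetyltransferase, and Cyp4a32 to Serpina1c (0.177) and Adtrp (0.189). These are the best of many genes over 9 groups.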

How the data were processed

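RNA from mouse liver was prepared as stranded total RNA libraries, per the labels' protocols. The submitters' processing notes name Trim Galore, HISAT2, featureCounts and the build mm10, and the authors' deposited table holds a whole-number count for each gene and library, adjusted with ComBat-seq by its name; how reads that fit several genes were treated is not given in the sources used here. All 55536 gene IDs matched GENCODE M21. The 2 libraries of vehicle mouse 3 (3 weeks) and uninvolved libraries 3 and 6 were summed, leaving 73 samples of 75 libraries. Unlike the uninvolved pair, the 2 libraries of vehicle mouse 3 were not alike. They differed by a chi-square of 116 per gene, and their mitochondrial shares were 13.47% and 2.858%.

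Each comparison used edgeR 4.0.16 in R 4.3.3 (TMM, filterByExpr, quasi-likelihood F test, sequencing batch as a term at 5 months), tested on simulated data, with Benjamini-Hochberg adjustment over all genes tested and a threshold of 0.05. Vehicle ages were compared within batch 1. Members, lists and tests were chosen with earlier results of these data known. All members are named; the list genes named are the up to 2 called genes with the largest fold change, and the nearest genes are the 2 closest profiles (Cyp4b1 was added after its value was seen). Alternatives were RLE size factors, no filter, DESeq2 1.42.0, no TMM, batches apart, left-out samples and a replicate block. Depth ran from 2831666 to 45448610 counts per library. The pairing of tumor and uninvolved liver comes from the mouse number in the titles; deviations from the group means correlated at -0.274 to 0.648 (median 0.0034) over the 6 pairs, and 1 of 6 correlated best with its own number.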

Additional observations from a re-analysis of the deposited data

Results flagged for a closer look

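Among 80 checks of a member within a group of 4 to 10 samples, 11 found a sample far from the rest of its group; chance gives about 1 in 20. At 3 weeks these were Cyp4a12b in vehicle 6 (1.713 CPM) and in TBT 8 (3.075 CPM), where the group medians were 0, and Cyp4v3 in TBT 8 (291.1 CPM, the highest). At 5 months they were Cyp4f15 in vehicle 9 (60.8 CPM, the lowest, in the library with 2831666 counts), and Cyp4a12b (1.227 CPM) and Cyp4a32 (3.011 CPM) in high-risk 10, both the lowest, in the library with 39669 genes detected. At 10 months they were Cyp4a12a in vehicle 4 (67.49 CPM, lowest) and low-risk 8 (51.81 CPM, lowest), Cyp4a10 in low-risk 2 (65.34 CPM, lowest), and Cyp4a10 in mouse 7, highest both in uninvolved liver (437 CPM) and in the tumor (606 CPM).

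For Cyp4a31, uninvolved less low-risk at 10 months differed from high-risk less low-risk at 5 months by -2.49 on the log2 scale in the interaction test (edgeR adjusted p = 0.0413). The call was lost on leaving out any 1 sample of 10 months (0.0562 to 0.125) and without a filter on low counts (0.166). Uninvolved liver is labelled high-risk, but whether it matches the high-risk group of 5 months is not given by the labels.

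The vehicle library of 10 months labelled as tumor, which entered no comparison, had more Cyp4a12a (178.4 CPM) and Cyp4a12b (87.3 CPM) than any of the 6 vehicle livers (at most 159.2 and 55.52 CPM). It was below their range for Cyp4f13 (37.28 CPM), Cyp4f14 (161 CPM), Cyp4f15 (106.8 CPM), Cyp4v3 (387.8 CPM) and Cyp4a10 (69.32 CPM). It has 14.06% mitochondrial counts, and it is a single library.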

How the results depend on the processing

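Of the counts of members called, 104 values under alternatives were within 1.5 times of those reported and 24 were not. High-risk against low-risk livers gave 2 in batch 1 only, against 7. High-risk against vehicle gave 0 in batch 1 only, 0 with the replicate block and 2 with only the 2 groups compared, against 4. Tumor against uninvolved liver gave 0 with the replicate block, 0 with that block without mice 3 and 6, and 0 to 1 on leaving out each sample, against 1. The change of the risk difference gave 0 without a filter and 0 to 0 on leaving out each sample, against 1. Without TMM scaling (chosen after seeing the data, as were the fits without single 5-month libraries and without mice 3 and 6), the counts were 2 for uninvolved against low-risk, both higher and against 4; 3 for tumor against vehicle, against 5; and 1 for 10 against 5 months, against 0.

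Of the log2 fold changes printed, 5 changed sign: Cyp4a10 in batch 1 only (-0.50 against low-risk, -0.60 against vehicle), Cyp4a12b (-0.48, high-risk against vehicle) and Cyp4a31 (0.14, low-risk against vehicle) with the replicate block, and Cyp4f15 without TMM scaling (0.0146, tumor against vehicle). The cause was not tested. Outside tumor and uninvolved liver, equal numbers name no shared animal; over 7 pairs at 3 weeks 4 samples correlated best with their own number. The block gave 5 members for uninvolved and 7 for tumor against vehicle, and changed no other count. Outside tumor and uninvolved liver the block is thus no paired analysis. High-risk and vehicle livers of 5 months had 3 equal numbers, and 0 of these correlated best with their own number. High-risk or uninvolved liver shared no number with low-risk liver, and no block was fitted there. Depth limits Cyp4a12a and Cyp4a12b at 3 weeks and Cyp4a31 in the shallow libraries.

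Counts over all genes moved by more than 1.5 times in these cases. For 10 against 5 months, 2107 genes became 1128 without a filter, 3438 with DESeq2, 3700 without the technically deviating libraries and 671 with the vehicle library labelled as tumor counted as vehicle. For 5 months against 3 weeks, 3616 became 2172 without a filter and 5757 without deviating libraries. High-risk against low-risk went from 5745 to 773 in batch 1 only. High-risk against vehicle went from 2341 to 1211 without a filter, 4947 without TMM scaling, 1338 with 2 groups, and 0 with the replicate block or batch 1 only. Tumor against uninvolved went from 2961 to 1889 with the block, 5346 with all 10-month groups and 1580 to 1611 without uninvolved replicate 1, 5 or 7. Tumor against vehicle went from 7016 to 4123 with the block and 4206 with the vehicle tumor library, and uninvolved against vehicle from 9427 to 6019 with that library. The change of the risk difference went from 72 to 4 without a filter, 231 with DESeq2, 122 with uninvolved libraries 3 and 6 apart, and as few as 6 without low-risk replicate 4. Counts of 0 became 3 (no filter) and 2 (DESeq2) at 3 weeks, and at most 52 (DESeq2) for low-risk against vehicle at 5 months and 1 at 10 months.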
